A study of Mus musculus with 38 samples.

Results

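The active zone scaffold genes described here are Bsn, Pclo, Rims1, Rims2, Unc13a, Erc1, Erc2 and Ppfia3, which encode structural proteins of the presynaptic release site. They were listed by symbol and make up 8 of the 22443 genes with a coding transcript in the count files. Each gene was read from its transcript with the greatest length of coding sequence (CDS) and untranslated regions together. Its level is given as CPM, its counts scaled to a common total of CDS counts per library. The data are PL-Ribo-seq, in which ribosome footprints are sequenced from primary cortical neurons of CD-1 mouse embryos that express the biotin ligase TurboID from a doxycycline-inducible lentivirus. In TurboID-PSD95 the ligase is fused to the postsynaptic scaffold PSD95 and carries its untranslated regions (UTRs), and in Pan-TurboID it has no localization signal. Footprints came either from the input or from the streptavidin pulldown of biotinylated material, and per the labels cells received cycloheximide for 2 min before 30 min of biotin, for which the methods give a shorter time in the DHPG experiment.

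The 38 libraries form 14 groups. The KCl experiment has 8 groups of 3 libraries, namely input and pulldown of resting neurons and of neurons depolarized with 55 mM KCl for 1 h, with each of the 2 ligases. The DHPG experiment has inputs and pulldowns of TurboID-PSD95 neurons given 100 µM of this metabotropic glutamate receptor agonist for 10 min, in 2 groups of 3. The knockdown experiment has 4 groups of 2, inputs and pulldowns of resting and KCl-depolarized TurboID-PSD95 neurons that had 20 nM siRNA against eIF4G2, a translation initiation factor, for 72 h. Activated neurons were first silenced with tetrodotoxin and DL-AP5, which the labels do not state for resting neurons. Several limits follow from this design. The DHPG and knockdown experiments hold no untreated or control siRNA libraries used here, so their resting counterparts come from the KCl experiment and experiment and treatment cannot be told apart. Dissociated embryonic cortices were pooled for culture, the ligase was overexpressed, and a lower footprint level of a gene can reflect fewer cells, less mRNA or fewer ribosomes per mRNA alike. The methods speak of biological replicates for this assay, but neither they nor the labels tell which cultures the libraries came from, so that p-values measure the spread between these libraries.

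The active zone is the patch of presynaptic membrane at which synaptic vesicles dock, are primed and fuse. Bassoon (Bsn) and Piccolo (Pclo) are giant scaffolds that hold vesicles near the release site, RIM1 and RIM2 (Rims1, Rims2) tether calcium channels and vesicles, and Munc13-1 (Unc13a) binds RIM and primes vesicles for fusion. The ELKS family proteins (Erc1, Erc2) and liprin-α3 (Ppfia3) bind RIMs, Bassoon and one another in the scaffold. These proteins act in axon terminals, whereas the PSD95 bait sits across the cleft in the postsynaptic density.

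Because the results below concern where on these mRNAs the footprints lie, the start codon of each transcript is shown with up to 18 bases before and 9 bases after it, 5′ to 3′ on the mRNA strand, with the start codon in capitals and its mm10 position. The sequences are those of GENCODE release 21 for mouse.
Bsn (chr9:108190256-108190258, minus strand): cccgcccgcctgcccaccATGggcaacgag
Pclo (chr5:14515222-14515224, plus strand): gacgtgtcccgccgagccATGggcaacgag
Rims1 (chr1:22805722-22805724, minus strand): ATGtcctcggcc
Rims2 (chr15:39198363-39198365, plus strand): ggttcggctccgccaaacATGtcggctccg
Unc13a (chr8:71671645-71671647, minus strand): ctctagccgcctggagtcATGtctctgctg
Erc1 (chr6:119825052-119825054, minus strand): taagttcaccctgcaaccATGtatggaagt
Erc2 (chr14:27652827-27652829, plus strand): ccacatcacagaagaaaaATGtacgggagc
Ppfia3 (chr7:45361802-45361804, minus strand): caggccggcaccgccgccATGatgtgcgag
From the A of the start codon on, Bsn and Pclo shared 12 of 12 bases, Erc1 and Erc2 shared 9 and Rims1 and Rims2 shared 7. The Rims1 transcript chosen by this rule has no 5′ UTR in the annotation, so Rims1 is left out wherever the 5′ UTR is measured.

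The 8 CDSs were all longer than the median of the 13003 genes tested in the KCl experiment, 1389 nt. Pclo had 15207 nt in 25 CDS segments, Bsn 11829 nt in 10 segments, Unc13a 5139, Rims2 4593, Rims1 4275, Ppfia3 3585, Erc1 3363 and Erc2 2934 nt. Over the 38 libraries their CDSs collected between 6969 counts (Rims2) and 170988 counts (Pclo), and the lowest count of a member in a library was 40, for Rims2. The libraries held 5906281 to 35643247 counts in all, of which 2047169 to 14636018 fell in the CDSs used.

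The labelled cell type, bait and knockdown were checked, and the stimuli were not. All 5 neuronal markers were detected in every library, with a summed level of 2200 to 6292 CPM, and the 5 astrocyte markers summed to 78.2 to 886 CPM, lowest in the DHPG experiment at 78.2 to 87.1 CPM. The oligodendrocyte lineage markers summed to 10.6 to 413 CPM, with Mog at 0 in 37 libraries, and the microglial markers to at most 6.58 CPM, with P2ry12 at 0 in 27 libraries and Tmem119 at 0 in 30. Dlg4, whose counts include the PSD95 bait, had a pulldown over input ratio higher by 4.17 (log2) with TurboID-PSD95 than with Pan-TurboID (SE 0.636, edgeR FDR 0.0415). This call was lost with scaling by library totals alone. It was not kept throughout the 4 fits that left out libraries either, in which 0% to 0.00758% of all genes were called. In depolarized TurboID-PSD95 pulldowns Dlg4 ranged from 338 to 5224 CPM. Eif4g2 fell by 0.98 and 0.90 (log2, SE 0.190 for both) in resting and depolarized knockdown inputs against inputs without knockdown (edgeR FDR 0.00376 and 0.00643). One library stood apart: the ratios of the depolarized TurboID-PSD95 pulldown 2 over its input had an SD over genes of 0.487 and a correlation of 0.679 with the other pairs of its group, the lowest of the 19 pairs in both.

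In resting inputs, 7 of the 8 genes had similar footprint densities and Rims2 stood well below them. Per kilobase of CDS, the 6 resting inputs of both ligases gave 63.6 ± 6.65 CPM for Ppfia3, 63.2 ± 6.62 for Rims1, 61.2 ± 5.56 for Pclo and 59.9 ± 4.15 for Erc1 (mean ± SD, n = 6). Unc13a followed at 48.4 ± 3.59, Bsn at 46.8 ± 5.35, Erc2 at 39.9 ± 3.94 and Rims2 at 9.35 ± 1.32 CPM per kilobase. Neighbours in this order overlapped in range except at the steps from Erc1 to Unc13a and from Erc2 to Rims2. Among the genes tested, Ppfia3 lay at the 79.4th percentile of density and Rims2 at the 32.9th.

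Unc13a had more footprints in the pulldown than in the same-numbered input in all 19 pairs of the series, whereas Erc1, Erc2 and Ppfia3 had fewer in all 19. The log2 ratio of pulldown CPM to input CPM ranged from 0.36 to 0.84 for Unc13a with a median of 0.73. The medians were -0.68 for Erc1, -0.61 for Erc2 and -0.38 for Ppfia3. Pclo was above its input in 16 of 19 pairs, Bsn in 11, Rims1 in 4 and Rims2 in 2. The members therefore fell on both sides of their inputs. Bsn was above its input in 4 of 12 pairs of the KCl experiment and in all 7 of the others, and Rims1 in 1 of 12 pairs of the KCl experiment, 0 of 3 with DHPG and 3 of 4 with knockdown.

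**Figure D1:**
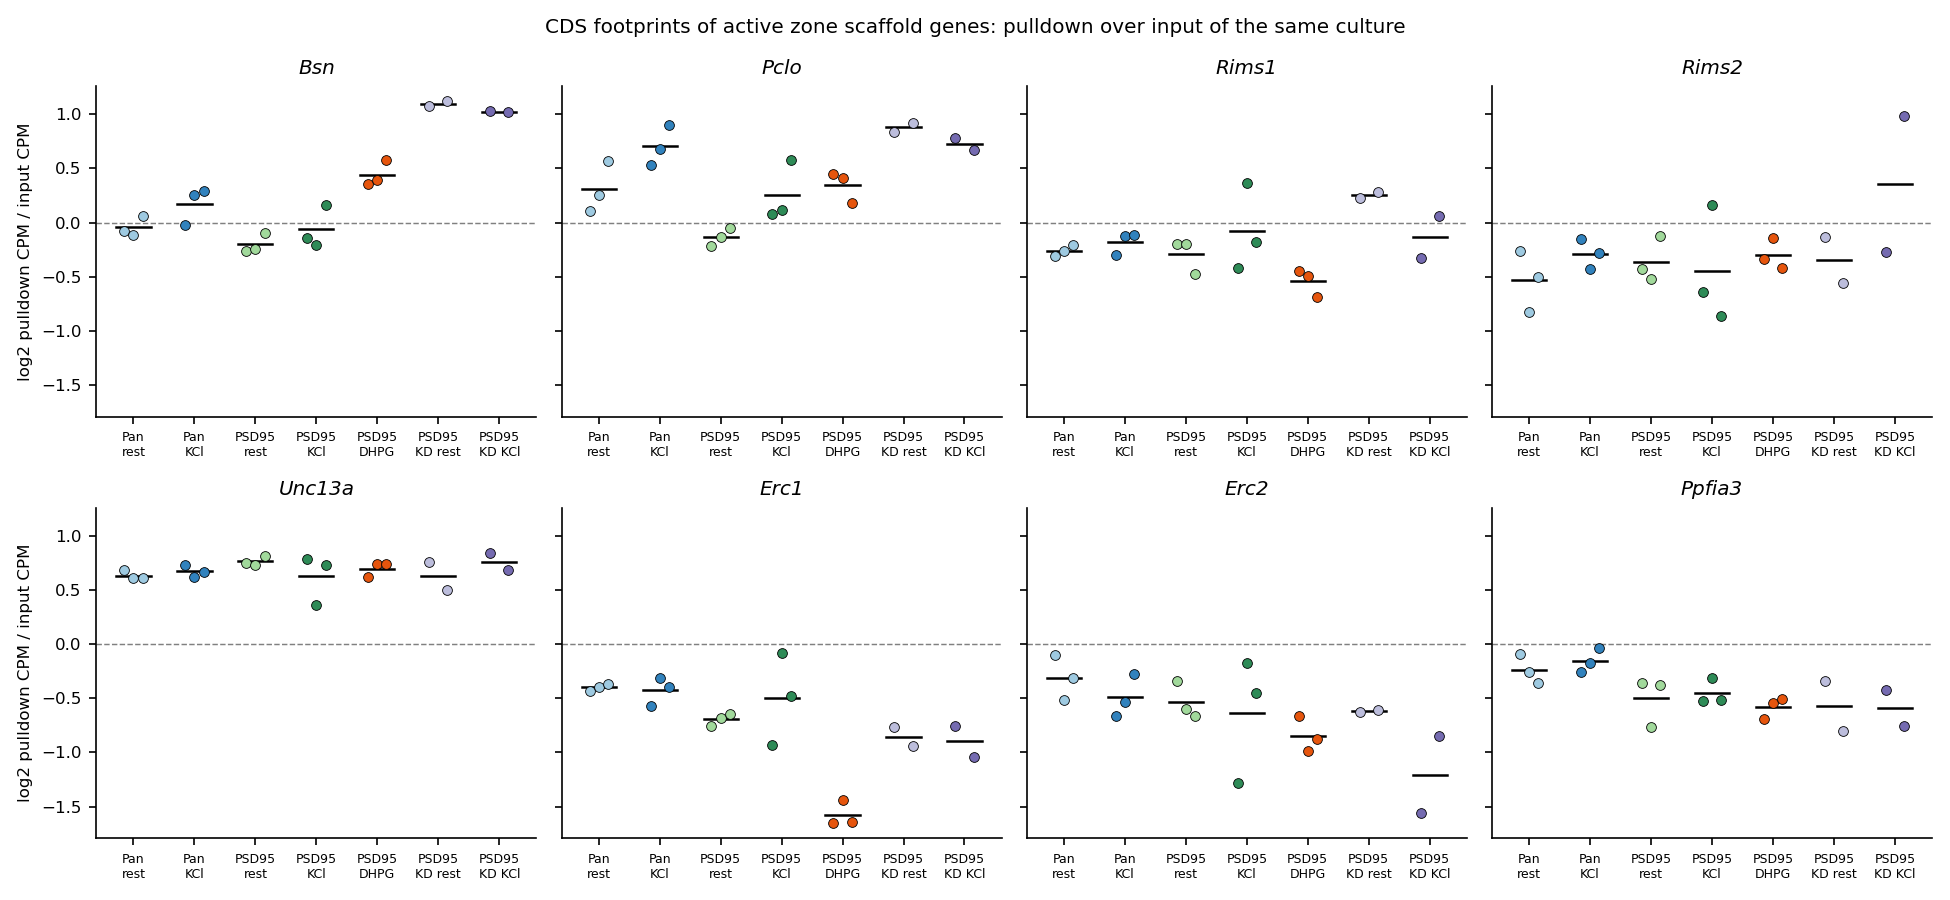
Log2 of pulldown CPM over CPM of the same-numbered input (y axis) in the 7 conditions with pairs (x axis), 1 panel per gene. Each point is a pair, bars give the mean (n = 3, or 2 for knockdown), and 0 marks equal levels. Unc13a lies above 0 in all 19 pairs and Erc1, Erc2 and Ppfia3 below 0 in all 19.

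Unc13a, the vesicle priming factor, was the member with the clearest pulldown over input difference in the KCl experiment. In resting TurboID-PSD95 neurons the inputs had 242, 264 and 221 CPM and the pulldowns 405, 438 and 388 CPM. All 3 pulldowns lay above all 3 inputs, and Unc13a was 1.74-fold higher in the pulldown (log2 0.80, SE 0.158, edgeR FDR 0.00339). In depolarized TurboID-PSD95 neurons the inputs had 219, 245 and 223 CPM and the pulldowns 379, 314 and 369.6 CPM, again without overlap (log2 0.68, SE 0.159, edgeR FDR 0.0117). With Pan-TurboID the resting inputs had 273, 249.9 and 243 CPM against pulldowns of 439, 381 and 370.4 CPM, and the depolarized inputs 180.4, 222 and 229 CPM against 299.6, 342 and 362 CPM. These groups did not overlap either, with log2 values of 0.68 at rest (SE 0.158, edgeR FDR 0.0197) and 0.72 after KCl (SE 0.159, edgeR FDR 0.0167). Unc13a was thus higher in the pulldowns of both ligases.

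Erc1, an ELKS scaffold, moved the other way in resting TurboID-PSD95 neurons. Its inputs had 206, 194 and 222 CPM and its pulldowns 122, 121 and 142 CPM, which did not overlap (log2 -0.66, SE 0.233, edgeR FDR 0.04). In the other 3 conditions of the KCl experiment the log2 fold changes of Erc1 were -0.35, -0.35 and -0.38 and were not called at an FDR of 0.05. Its paralog Erc2 and the liprin gene Ppfia3 had log2 fold changes of -0.51 and -0.46 in resting TurboID-PSD95 neurons (edgeR FDR 0.134 and 0.0535), and Ppfia3 was called with library totals alone (-0.49, edgeR FDR 0.042) and with DESeq2 (-0.42, adjusted p = 0.0371). For Erc2 the inputs of 101, 119 and 130.3 CPM lay above the pulldowns of 80.0, 78.6 and 82.1 CPM, and for Ppfia3 the inputs of 199, 236 and 266 CPM overlapped the pulldowns of 156, 139 and 204 CPM.

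At rest with TurboID-PSD95, 2 of the 8 members were called, Unc13a up and Erc1 down, where 25.1% of all 13003 genes were called. In depolarized TurboID-PSD95 neurons 1 member was called against 12.6% of all genes, with Pan-TurboID at rest 1 against 9.54%, and with Pan-TurboID after KCl 1 against 8.75%, Unc13a each time. The share of members was close to that of all genes in each case. The members' median log2 fold change was -0.29 at rest with TurboID-PSD95, beside -0.05 for all genes.

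Per the methods an input and its pulldown are portions of the same fraction, and same-numbered libraries were taken to be such pairs. With the pair as a block in the fit, more genes passed in all 4 comparisons of the KCl experiment. In resting TurboID-PSD95 neurons 4 members were then called against 41.9% of all genes, with Unc13a at 0.80, Erc1 at -0.66, Erc2 at -0.49 and Ppfia3 at -0.46 (log2, edgeR FDR 0.0172 or lower). In depolarized TurboID-PSD95 neurons it was the same 4 genes against 34.6% of all genes, with Unc13a at 0.67, Erc1 at -0.43, Erc2 at -0.53 and Ppfia3 at -0.40. With Pan-TurboID the block called Unc13a and Pclo up and Erc1 down, 3 members each at rest and after KCl, against 32.9% and 31.9% of all genes. Pclo then stood at 0.36 at rest and 0.76 after KCl (log2, edgeR FDR 0.0239 and 4.59e-05).

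A fit without the library standing apart, the depolarized TurboID-PSD95 pulldown 2, was added after seeing the data. It called 5 members in depolarized TurboID-PSD95 neurons, against 30.8% of all genes. Unc13a stood at 0.76 and Rims2, Erc1, Erc2 and Ppfia3 at -0.74, -0.77, -0.73 and -0.52 (log2). Without replicate 3, on the other hand, no member was called in any of the 4 pulldown over input comparisons, where 0 to 3 of all 13197 genes were called in each and Unc13a stood between 0.61 and 0.78 (log2). Its call was also lost without replicate 1 in depolarized TurboID-PSD95 neurons (0.61) and without replicate 2 with Pan-TurboID (0.73 at rest, 0.74 after KCl), and that of Erc1 without any one of the 3 numbers (-0.60 to -0.68). Neuronal markers summed to 3003 to 3574 CPM in resting TurboID-PSD95 inputs and 3903 to 4158 CPM in their pulldowns, and to 3023 to 3625 and 3839 to 4082 CPM with Pan-TurboID. After KCl inputs and pulldowns overlapped, at 2200 to 2759 and 2334 to 2856 CPM with TurboID-PSD95 and 2437 to 2804 and 2548 to 2731 CPM with Pan-TurboID. Oligodendrocyte lineage markers summed to 159.9 to 413 CPM in resting TurboID-PSD95 inputs and 73.8 to 298 CPM in pulldowns. With Pan-TurboID they summed to 156 to 364 and 67.8 to 184 CPM. After KCl they summed to 112 to 152 and 63.7 to 121 CPM with TurboID-PSD95 and to 116 to 255 and 38.7 to 124 CPM with Pan-TurboID. The part of these markers in the results was not tested.

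All members have long CDSs, and an alternative fit took CDS length into account. After each library's trend of level with CDS length was removed, no member was called higher in any of the 7 pulldown over input comparisons of the series. In resting TurboID-PSD95 neurons 5 members were then called, all lower, against 14.1% of all genes, and the values were -0.89 for Bsn, -0.90 for Pclo, -1.05 for Erc1, -0.87 for Erc2 and -0.87 for Ppfia3, with Unc13a at 0.30. In depolarized TurboID-PSD95 neurons Bsn and Ppfia3 were called lower against 5.35% of all genes. With Pan-TurboID no member was called, at rest or after KCl, against 2.95% and 2.55%. Set against the fitted trend with CDS length, most members therefore lay below 0, at a median of -0.87 in resting TurboID-PSD95 neurons. Pclo and Bsn lie at the 99.9th and 99.6th percentiles of CDS length. Few tested genes are as long, so the trend rests there mostly on shorter genes.

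Whether the TurboID-PSD95 pulldown held more of a gene than the Pan-TurboID pulldown, each over its own input, was tested over resting and depolarized neurons together. No member was called by edgeR and none reached an unadjusted p of 0.05, against 0.00769% of all genes, which is 1 gene of 13003, Dlg4 itself, while 169 genes had an unadjusted p below 0.05. The log2 differences of the members ran from -0.44 for Pclo (95% confidence interval -0.97 to 0.09) to 0.06 for Rims1 (-0.36 to 0.48). For Unc13a the difference was 0.03 with an interval from -0.29 to 0.36. Differences within these intervals cannot be told from 0 at this spread.

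Of 29 other active zone genes, 10 were called in resting TurboID-PSD95 neurons, 7 higher and 3 lower in the pulldown, with a median log2 fold change of 0.08. The presynaptic calcium channel genes Cacna1a and Cacna1b were higher by 1.61 and 1.31 (log2, SE 0.306 and 0.260, edgeR FDR 0.00321 and 0.00339). The genes Lin7a and Lin7c, adaptors of the CASK and Mint scaffold, were lower by log2 values of -1.32 and -0.84 (edgeR FDR 0.00341 and 0.0229). After KCl 4 of the 29 were called with TurboID-PSD95, and with Pan-TurboID 6 at rest and 5 after KCl, all of them higher in the pulldown. Among 14 postsynaptic scaffold genes other than Dlg4, 2 were called at rest with TurboID-PSD95 and 4 after KCl, all higher, and with Pan-TurboID 0 at rest and 0 after KCl. Over all genes the shares called were the 25.1% and 12.6% with TurboID-PSD95 and the 9.54% and 8.75% with Pan-TurboID given above.

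In position along the CDS, pulldown footprints of the members lay further from the start codon than input footprints. The measure is the footprint centre, the mean midpoint of the CDS segments weighted by their counts, as a percent of CDS length. For Bsn, the 6 TurboID-PSD95 inputs ran from 39.1% to 44.1% with a median of 42.2%, and the 6 pulldowns from 47.6% to 53.8% with a median of 52.3%. For Unc13a the inputs ran from 26.1% to 35.2% (median 29.5%) and the pulldowns from 33.7% to 47.0% (median 44.3%). The groups did not overlap for Bsn and overlapped slightly for Unc13a, and all 6 pairs of each gene shifted the same way.

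With TurboID-PSD95, 6 of 8 members were called by an exact permutation test of 6 against 6 libraries with adjustment over 7042 genes, against 60.9% of all genes. The means were 51.6% in pulldowns against 41.9% in inputs for Bsn, 46.2% against 38.4% for Pclo, 58.3% against 49.8% for Rims1, 42.5% against 30.2% for Unc13a, 43.7% against 31.4% for Erc2 and 48.4% against 36.4% for Ppfia3. Their two-sided exact p lay between 0.00216, the smallest that 6 against 6 separate libraries allow, and 0.0108, with adjusted p of 0.0152 to 0.0239. Rims2 had 50.3% against 40.0% (exact p = 0.0455, adjusted p = 0.0689) and Erc1 42.2% against 37.8% (exact p = 0.136). With Pan-TurboID, 6 members were called against 61.3% of all genes, with Erc1 in place of Pclo, which had 41.6% against 39.1% (exact p = 0.199). These tests do not pair pulldown and input. With same-numbered pulldown and input taken as pairs, the same 6 members passed narrowly with each ligase (exact sign-flip p = 0.0312). Their adjusted p was 0.048 with TurboID-PSD95 and 0.0474 with Pan-TurboID, against 65.1% and 66% of all genes called. The Erc1 call was lost when the first CDS segment was left out (3.75 points, exact permutation, adjusted p = 0.0959).

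The shift was one of most genes rather than of this set. Its median over the 7042 genes was 10.3 percentage points with TurboID-PSD95 and 8.86 with Pan-TurboID, and 94.9% and 95.1% of genes shifted toward the 3′ end of the CDS. The members' medians were 9.97 and 7.41 points, and 3 of the 8 lay above the median of all genes with either ligase.

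**Figure D2:**
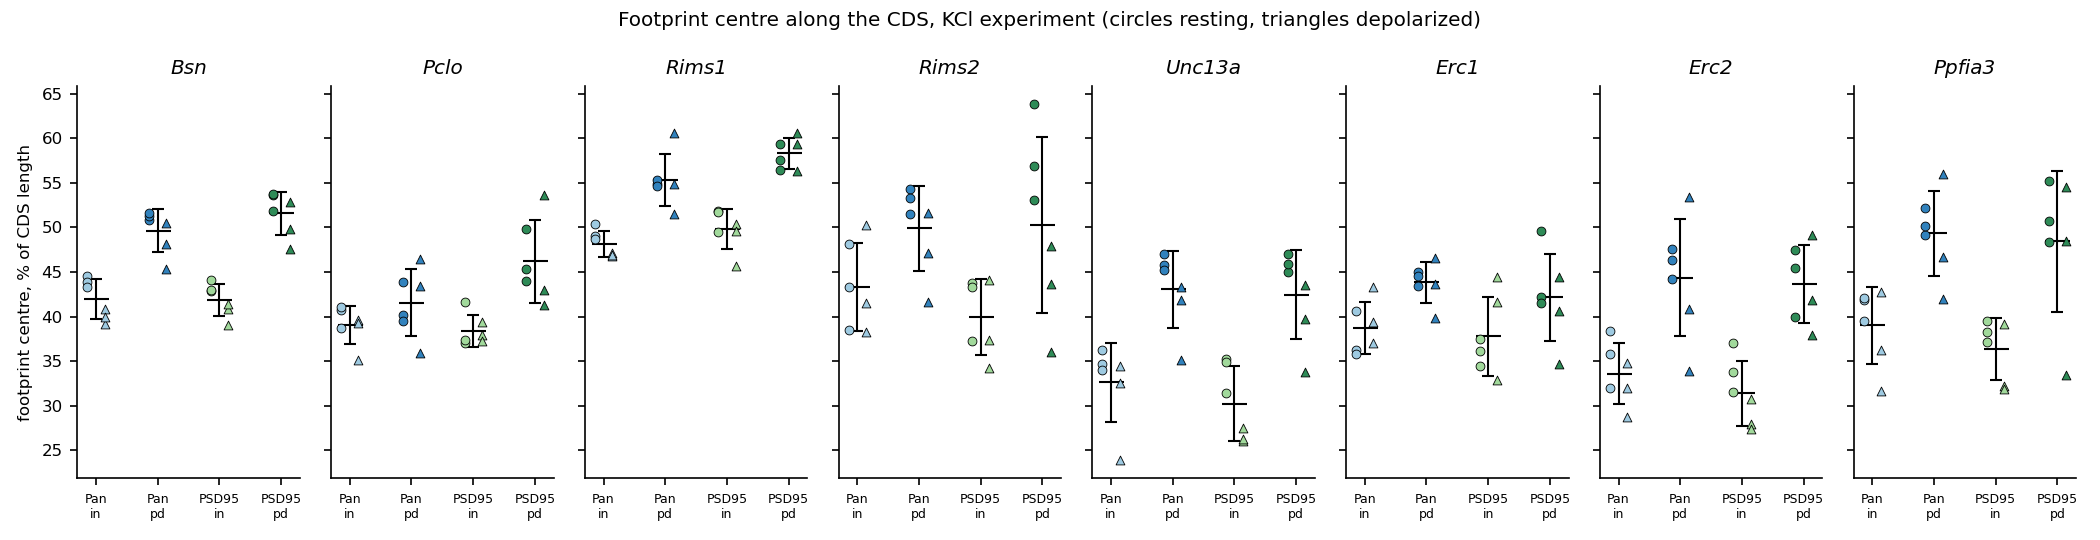
Footprint centre as percent of CDS length from the start codon (y axis) in Pan-TurboID and TurboID-PSD95 inputs and pulldowns of the KCl experiment (x axis), 1 panel per gene. Each point is a library (circles resting, triangles depolarized), with 6 libraries per position; the pulldowns of Bsn lie at 47.6% to 53.8% with TurboID-PSD95, above its inputs at 39.1% to 44.1%.

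For a view within the CDS, segments were assigned by their midpoints to a 5′, a middle and a 3′ part. In the 5′ part, Bsn, Rims1, Erc1, Erc2 and Ppfia3 were below their input in all 19 pairs, with median log2 ratios of -1.13, -0.76, -0.94, -1.14 and -1.17. Unc13a was above its input there in 17 of 19 pairs, at a median of 0.14. In the 3′ part, Bsn, Pclo and Unc13a were above their inputs in all 19 pairs with medians of 1.15, 0.88 and 1.31, while Erc1 was above in 8 of 19 at a median of -0.16. Over 6661 genes the medians by condition were -1.39 to -0.67 in the 5′ part and 0.49 to 0.78 in the 3′ part. Bsn therefore had a whole-CDS ratio near 0 in the KCl experiment with a 5′ part below its input and a 3′ part above it. Unc13a was the only member above its input in most pairs in the 5′ part, and Erc1 the only one below it in most pairs in the 3′ part.

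**Figure D3:**
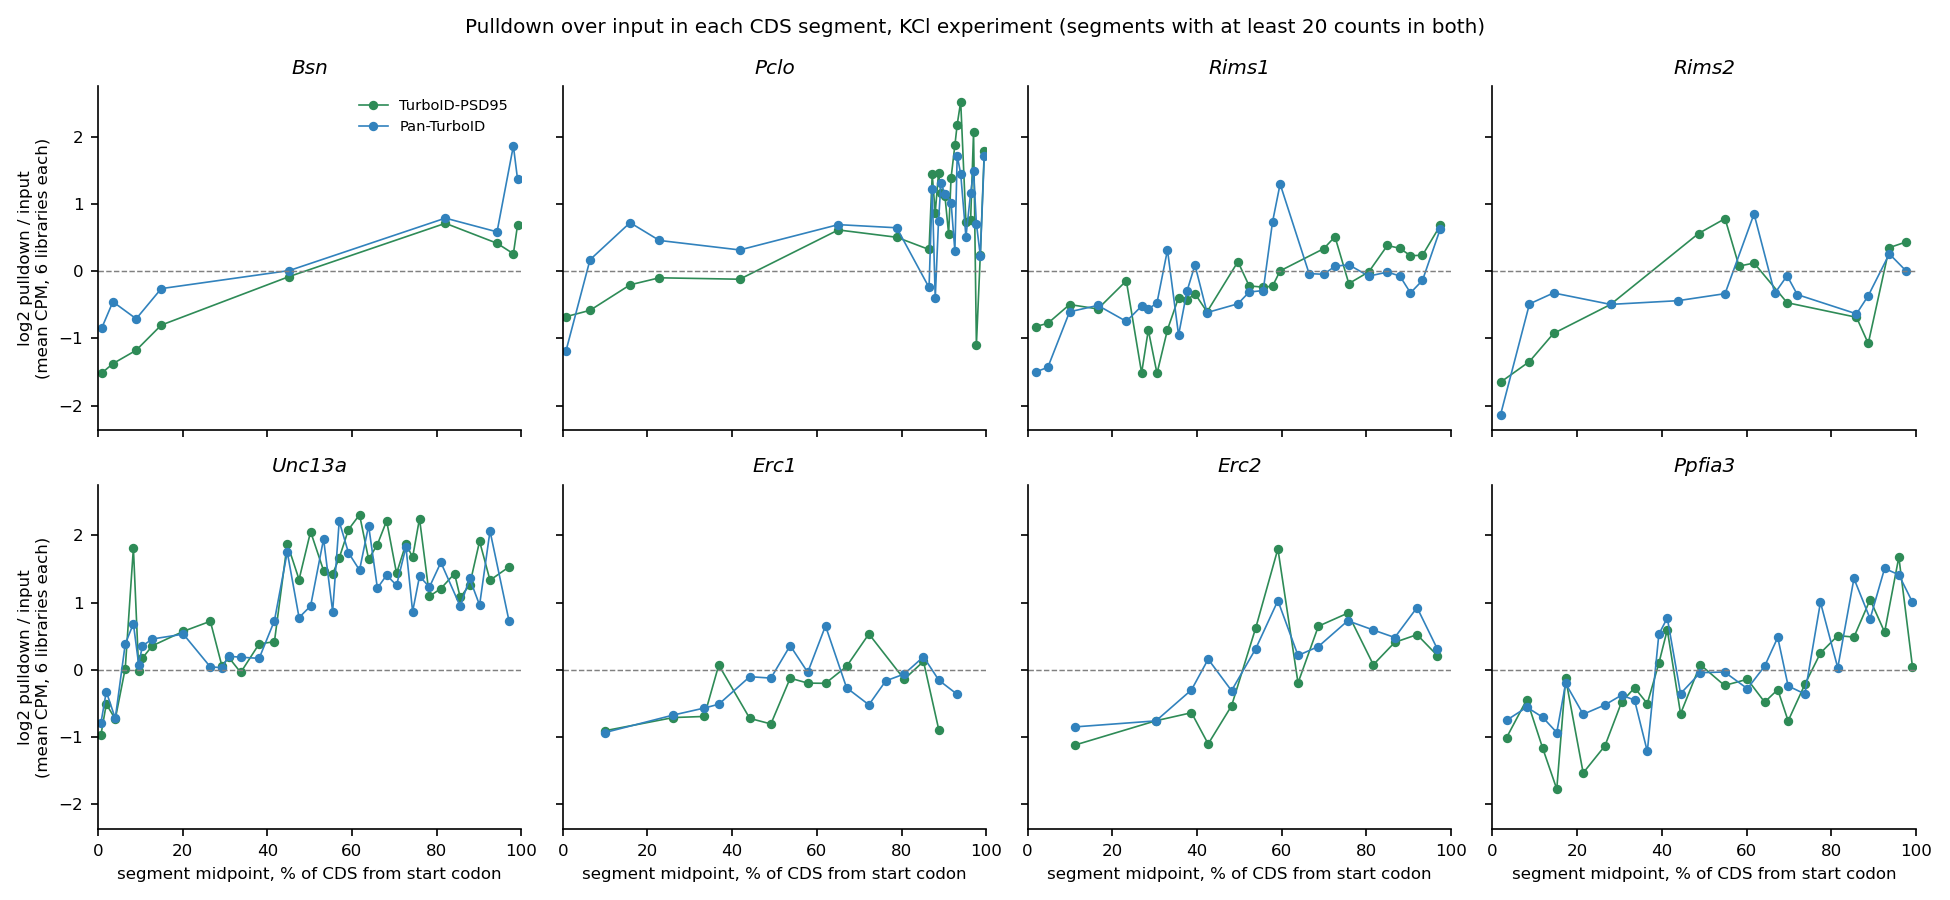
Log2 of pulldown over input (y axis, from mean CPM of 6 libraries each) in each CDS segment, placed by its midpoint as percent of CDS length from the start codon (x axis), for both ligases of the KCl experiment. Points are segments, joined by lines; over the 19 pairs the median of Unc13a is 0.14 in the 5′ part and 1.31 in the 3′ part, and that of Erc1 is -0.94 and -0.16.

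Depolarization with KCl lowered the footprint levels of Bsn, Pclo and Rims1 in inputs, taken over both ligases. Rims1, which tethers calcium channels, had 231 to 306 CPM in the 6 resting inputs (median 268) and 117 to 149 CPM in the 6 depolarized inputs (median 129). These ranges were far apart, and Rims1 was 2.01-fold lower (log2 -1.01, SE 0.147, edgeR FDR 2.27e-05). Bsn had 455 to 646 CPM at rest (median 545) and 336 to 400.2 CPM after KCl (median 371), also without overlap (log2 -0.56, SE 0.130, edgeR FDR 0.00402). Pclo had 806 to 1025 CPM at rest (median 943) and 435 to 861 CPM after KCl (median 506). One depolarized Pan-TurboID input, the first, lay within the resting range of Pclo (log2 -0.67, SE 0.183, edgeR FDR 0.0127).

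These 3 of 8 members were called, all lower, where 15.4% of all genes were called. The other 5 had log2 values of -0.38 for Erc2, -0.34 for Rims2, -0.25 for Ppfia3, -0.15 for Unc13a and -0.09 for Erc1, with edgeR FDR of 0.157 or higher. The members' median was -0.36 beside -0.01 for all genes, and that of the other active zone genes was -0.35, with 6 of 29 called and all 6 lower. Among these Apba1, which encodes the adaptor Mint1, fell from 344 ± 29.1 to 58.9 ± 13.7 CPM (SD, n = 6, log2 -2.51, edgeR FDR 2.72e-11) and the receptor phosphatase gene Ptprs from 879 ± 69.2 to 489 ± 48.4 CPM (log2 -0.81, edgeR FDR 1.58e-05). Of the 14 postsynaptic scaffold genes 3 were called, all lower, at a median of -0.36. Without replicate 2 or without replicate 3 the calls of Bsn and Pclo were lost, at log2 values of -0.43 and -0.45 for Bsn and -0.46 and -0.54 for Pclo, while Rims1 was called in both. With the CDS length trend removed Bsn was not called (log2 -0.30, edgeR FDR 0.212). Neuronal markers summed to 3003 to 3625 CPM in resting inputs and to 2200 to 2804 CPM in depolarized inputs, and their part in these changes was not tested.

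**Figure D4:**
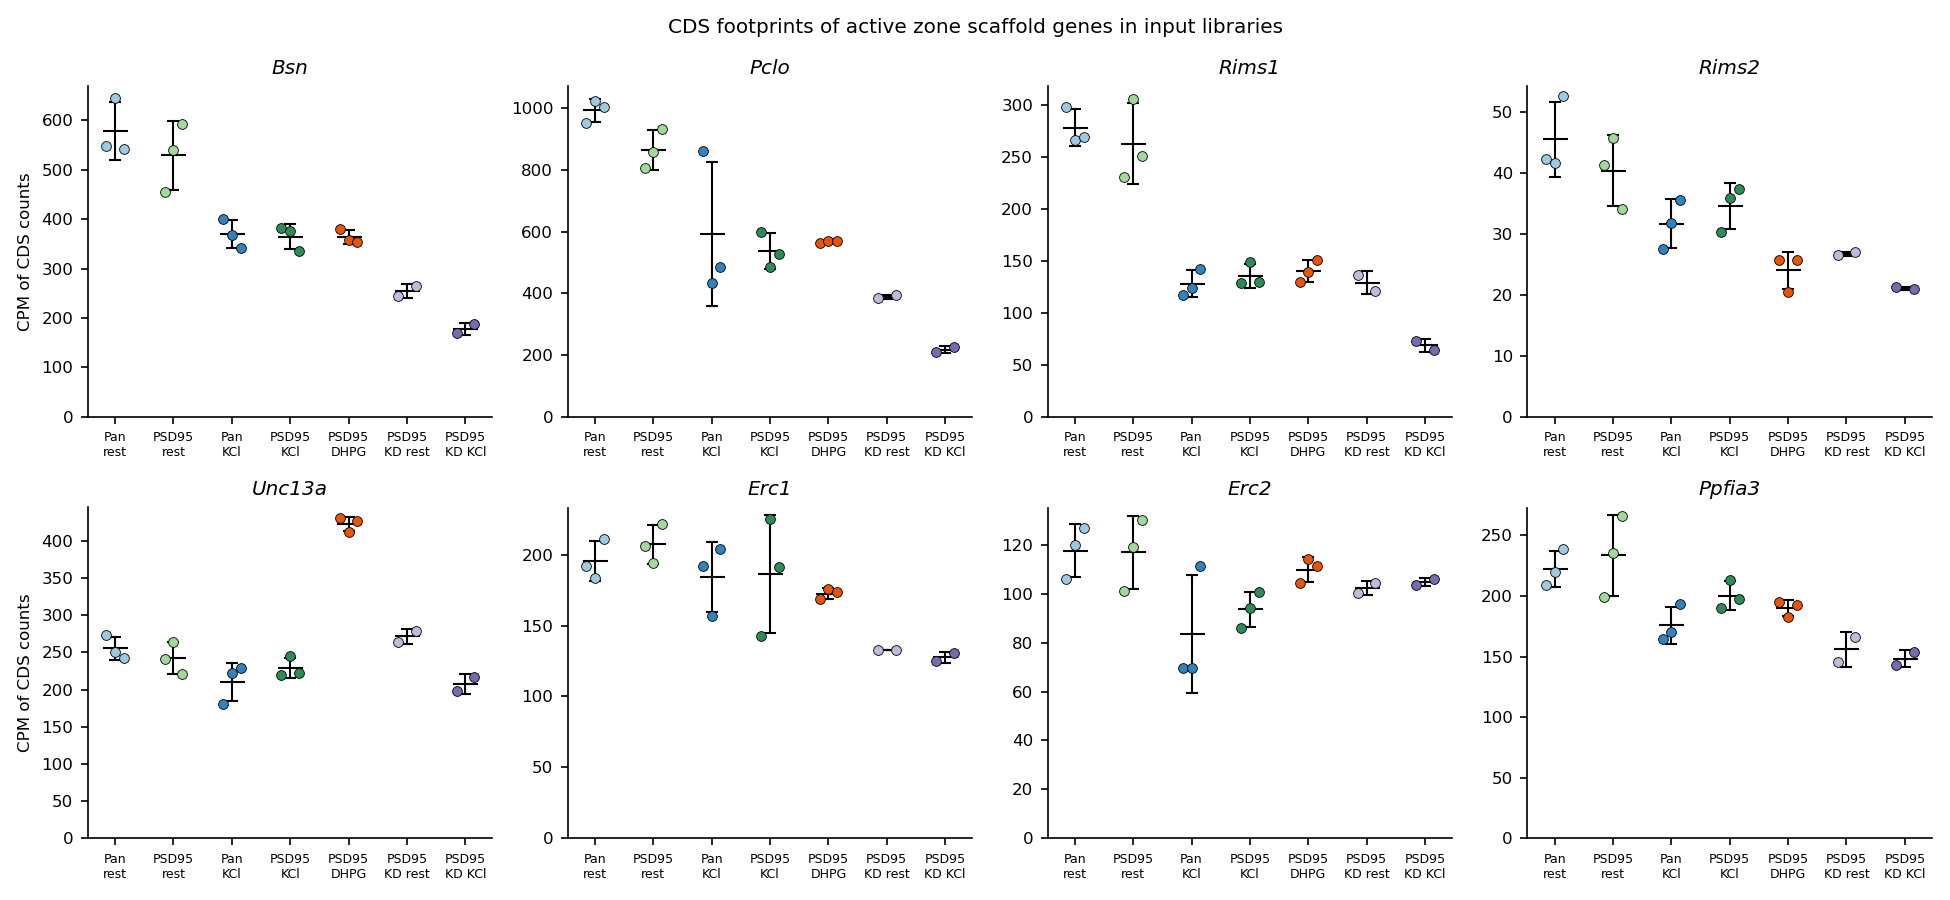
CPM of CDS counts in the inputs of the 7 conditions (x axis), 1 panel per gene with its own y axis from 0. Points are libraries and bars mean ± SD (n = 3, or 2 for knockdown); the resting inputs of Rims1 lie at 231 to 306 CPM and the depolarized ones at 117 to 149 CPM, and the DHPG inputs of Unc13a at 412 to 430.1 CPM.

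In pulldowns, only Rims1 was called after KCl. With TurboID-PSD95 it had 202, 267 and 181 CPM at rest and 95.8, 192 and 114 CPM after KCl, where the library standing apart gave the highest of the 3 values and reached into the resting range. Rims1 stood at -0.68 (log2, SE 0.207, edgeR FDR 0.0457), and without that library, in a fit added after seeing the data, at -1.01 (edgeR FDR 0.00334). With Pan-TurboID it had 240.3, 222 and 234 CPM at rest and 95.3, 114 and 132 CPM after KCl, without overlap (log2 -0.98, SE 0.208, edgeR FDR 0.00496). This 1 member of 8 stood against 6.58% of all genes called with TurboID-PSD95 and 5.03% with Pan-TurboID. The TurboID-PSD95 call was lost without any one of the 3 replicate numbers (log2 -0.60 to -0.80) and the Pan-TurboID call without replicate 3 (log2 -1.03). The TurboID-PSD95 call was also lost without the filter on low counts (-0.67) and with the CDS length trend removed (-0.39). Neuronal markers summed to 3903 to 4158 CPM in resting and 2334 to 2856 CPM in depolarized TurboID-PSD95 pulldowns, and to 3839 to 4082 and 2548 to 2731 CPM in those of Pan-TurboID, and their part in the result was not tested.

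A change of the TurboID-PSD95 pulldown over input ratio with KCl was called for no member and no gene by edgeR, that is 0% of all genes, while 235 genes had an unadjusted p below 0.05 and no member did. The members' log2 changes ran from -0.12 for Unc13a (95% confidence interval -0.58 to 0.34) to 0.40 for Pclo (-0.35 to 1.15). For Rims1 the change was 0.26 with an interval from -0.33 to 0.86. Changes within these intervals cannot be told from 0 at this spread.

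The footprint centre of Bsn in inputs moved toward the start codon with KCl. The 6 resting inputs ran from 42.9% to 44.5% of CDS length (median 43.7%) and the 6 depolarized inputs from 39.1% to 41.4% (median 40.4%). The ranges did not overlap and the means differed by -3.41 percentage points (exact permutation p = 0.00216, adjusted over all genes 0.0382). The test takes the 6 inputs of a side as separate, although they are 3 replicate numbers with each of the 2 ligases. It was the only member called, against 8.86% of all genes, and with same-numbered inputs taken as pairs it was lower in 6 of 6 pairs (exact sign-flip p = 0.0312, the smallest that 6 pairs allow, adjusted 0.158), a test in which 0 of 7042 genes were called. The differences of Unc13a, Erc2 and Rims1 were -5.96, -4.48 and -2.45 points (adjusted p of 0.0986, 0.130 and 0.130, exact permutation), and the median over all genes was -3.09 points.

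The share of footprints in the 5′ UTR was higher in depolarized than in resting inputs for 6 of the 7 members with a 5′ UTR, but no member passed after adjustment over all genes. Footprints are placed at their 5′ ends, so those of ribosomes on the first codons of the CDS can fall in this share. For Erc2 the 6 resting inputs ran from 11.8% to 16.8% (median 15.1%) and the 6 depolarized inputs from 16.9% to 29.0% (median 22.8%). For Ppfia3 they ran from 2.11% to 4.98% (median 4.13%) and from 5.02% to 10.4% (median 7.05%). Neither pair of ranges overlapped, and both genes had an exact permutation p of 0.00216, with 0.0544 after adjustment over 7691 genes. This test takes the 6 inputs of a side as separate, although they are 3 replicate numbers with each of the 2 ligases. With same-numbered inputs taken as pairs, both genes were higher in 6 of 6 pairs (exact sign-flip p = 0.0312, adjusted 0.207). The mean share of Erc1 was 22% at rest and 31.1% after KCl, that of Pclo 7.17% and 12.4%, that of Bsn 2.86% and 4.99% and that of Unc13a 15.2% and 19.1% (exact permutation p of 0.0152, 0.0173, 0.0108 and 0.0736, adjusted 0.112 or higher).

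By this test 0% of all genes were called in inputs and 0.039% in pulldowns, where again no member was. The median difference over all genes was 1.43 percentage points in inputs, and 65.6% of genes had a higher share after KCl, beside a members' median of 3.90 points. In pulldowns the medians were 1.48 points for all genes and 1.56 for the members, and 72.3% of genes and 7 of 7 members had a higher mean share after KCl. By same-numbered pairs, Rims2 was higher in only 1 of 6 and Bsn in 3 of 6. The library standing apart, the depolarized TurboID-PSD95 pulldown 2, had the highest share of the depolarized pulldowns for all of these members but Rims2. In inputs Rims2, with a 5′ UTR of 31 nt and 64 counts there in all libraries, had a share of 1.13% at rest and 0.599% after KCl.

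**Figure D5:**
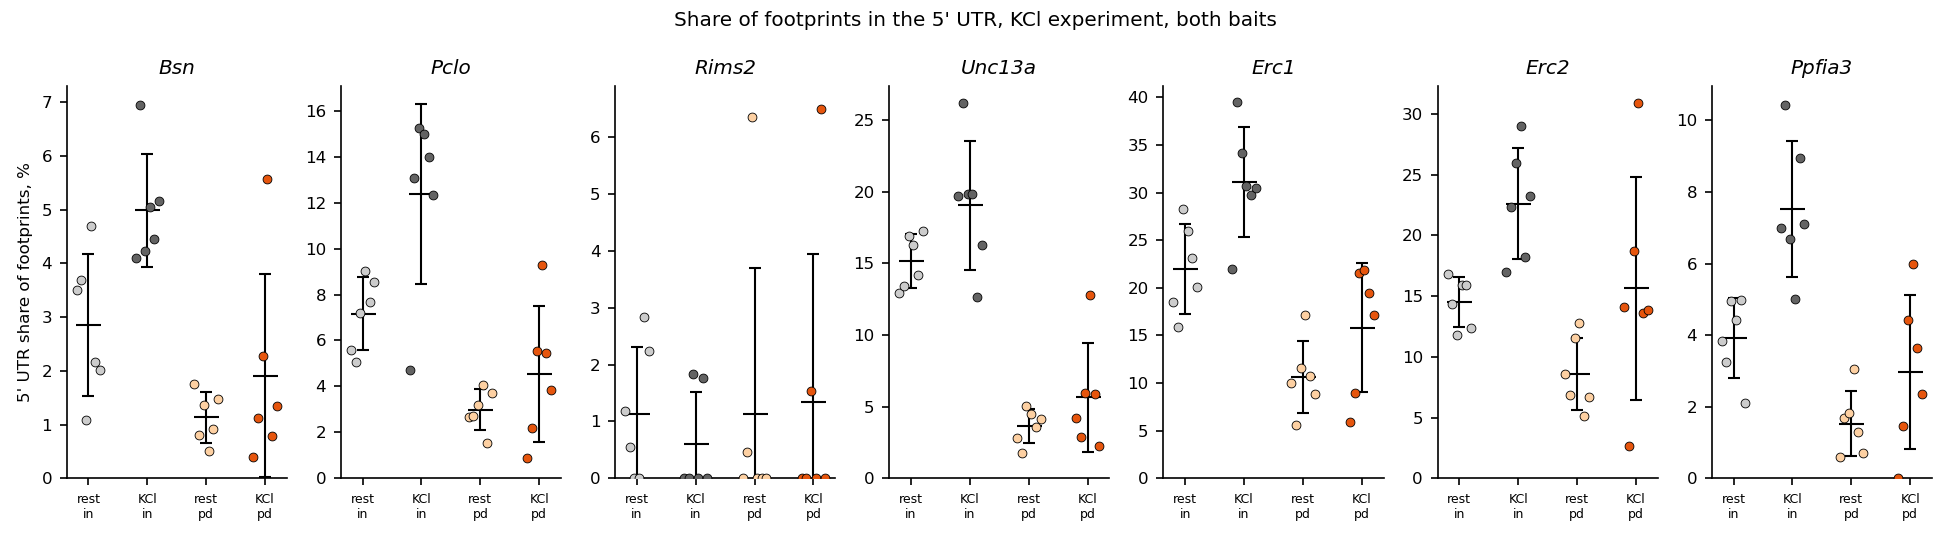
Share of footprints in the 5′ UTR, as percent of 5′ UTR and CDS footprints of the transcript (y axis), in resting and depolarized inputs and pulldowns of the KCl experiment (x axis), 1 panel per gene with a 5′ UTR. Points are libraries of both ligases, 6 per position; for Erc2 the depolarized inputs lie at 16.9% to 29.0% and the resting inputs at 11.8% to 16.8%.

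The 5′ UTRs differed in how many footprints they held and in upstream start codons. Unc13a had the densest, with 7079 counts over 110 nt, 64.4 per nt in the 38 libraries together, and Pclo had 33.5 per nt over 304 nt. Footprints are placed at their 5′ ends without an offset, so ribosomes on the first codons of the CDS can count in the 5′ UTR. In Ppfia3 the 15 nt that abut the start codon held 36.9 per nt, against 9 per nt in the other segment. The first segment was the densest in Erc1 and Erc2. In Erc1, 81.9% of the 9548 counts lay in the first of 3 segments, 274 nt, whereas its 5 upstream ATGs lie in the other segments. Erc2 has 2 upstream ATGs, Bsn, Pclo and Unc13a have 1 each, and Rims2 and Ppfia3 have none, and each reading frame from these ATGs ends before the start codon shown above. For comparison, 55.2% of the 5′ UTRs of 20797 genes hold the letters ATG on the mRNA strand. Which of these reading frames were translated was not measured.

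In the DHPG experiment the members fell on both sides of their inputs. Bsn, Pclo and Unc13a were higher in the pulldown, Rims1, Erc1, Erc2 and Ppfia3 were lower, and Rims2 was not called. Erc1 had 168.5, 175.5 and 174 CPM in inputs and 53.5, 64.8 and 55.7 CPM in pulldowns (log2 -1.36, SE 0.0788, edgeR FDR 2.33e-11). Unc13a had 430.1, 412 and 426 CPM in inputs and 660.0, 687 and 712 CPM in pulldowns (log2 0.91, SE 0.0545, edgeR FDR 3.87e-11). Neither gene's groups overlapped. Bsn had 379.6, 358 and 354 CPM in inputs and 487.5, 471 and 527 CPM in pulldowns (log2 0.65, SE 0.0598, edgeR FDR 1.16e-08). Pclo followed at 0.56, and Erc2, Ppfia3 and Rims1 stood at -0.64, -0.37 and -0.33 (edgeR FDR 0.000413 or lower), while Rims2 had -0.10 (edgeR FDR 0.435).

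The 7 of 8 members called stand against 79.7% of all 12257 genes called in this experiment, so that the members were called about as often as genes at large. The members' median was -0.22 beside 0.04 for all genes, and 26 of 28 other active zone genes were called, 14 higher and 12 lower, with Cacna1a at 1.75 and Cacna1b at 1.54 (log2) among the former and Lin7c at -1.75 among the latter. Scaling by library totals alone lowered the median of all genes by 0.21 (log2) and left Bsn, Pclo and Unc13a at 0.44, 0.35 and 0.70, while Rims2 was then called lower as well (-0.31, edgeR FDR 0.0253). With the CDS length trend removed, 7 members were called and all 7 were lower, against 67.4% of all genes: Bsn and Pclo then stood at -0.51 and -0.68, and Unc13a, the member not called, at 0.02. The direction of the giant scaffolds in DHPG pulldowns therefore depended on whether the trend was removed, to which few genes of their length contribute. That of Erc1, at -2.04, did not. Neuronal markers summed to 4810 to 4899 CPM in DHPG inputs and 6154 to 6292 CPM in pulldowns, oligodendrocyte lineage markers to 31.7 to 35.2 and 10.6 to 14.9 CPM and astrocyte markers to 80.8 to 85.4 and 78.2 to 87.1 CPM, and their part in the result was not tested.

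DHPG inputs differed most from resting TurboID-PSD95 inputs in Unc13a. The DHPG inputs had 412 to 430.1 CPM, as given above, and the resting inputs 242, 264 and 221 CPM, so that the groups lay far apart (log2 0.90, SE 0.101, edgeR FDR 7.65e-06). Rims1 had 129.6, 139.6 and 150.5 CPM against 231, 306 and 251 CPM (log2 -0.81, SE 0.150, edgeR FDR 0.000678). Rims2, Pclo and Bsn were also lower, at -0.65, -0.51 and -0.44, and no groups of these 5 members overlapped. The 5 members called stand against 32.8% of all genes. Scaling by library totals alone lowered the median of all genes by 0.10 and moved the share of higher genes among those called from 49.6% to 36.6%. Without replicate 2, Bsn, Pclo and Rims2 were not called (log2 -0.40, -0.50 and -0.44), and without replicate 3 Bsn was not (-0.32). With the CDS length trend removed Bsn was not called either (-0.35, edgeR FDR 0.0839). Astrocyte markers summed to 80.8 to 85.4 CPM in DHPG inputs and 287 to 726 CPM in resting inputs, with all 5 detected in both, neuronal markers to 4810 to 4899 CPM and 3003 to 3574 CPM, and oligodendrocyte lineage markers to 31.7 to 35.2 CPM and 159.9 to 413 CPM. The part of this difference in culture make-up in the result was not tested, and treatment and experiment cannot be told apart.

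With eIF4G2 knockdown, Bsn and Pclo were higher in the pulldowns than in the inputs, and the 4 knockdown pairs of Bsn had its highest ratios of the 19. In resting knockdown neurons Bsn had 244 and 265 CPM in inputs and 514 and 577 CPM in pulldowns (log2 1.21, SE 0.0986, edgeR FDR 3.07e-10), and Pclo 384 and 394 CPM in inputs and 687 and 747 CPM in pulldowns (log2 0.99, SE 0.0889, edgeR FDR 1.47e-09). In depolarized knockdown neurons Bsn had 169.6 and 187 CPM against 346 and 379.9 CPM (log2 1.13, SE 0.105, edgeR FDR 2.15e-09), and Pclo 209 and 225 CPM against 359 and 357 CPM (log2 0.83, SE 0.0956, edgeR FDR 8.08e-08). In each case both pulldowns lay above both inputs. Unc13a stood at 0.75 and 0.87, Erc1 at -0.73 and -0.79, Erc2 at -0.51 and -1.07 and Ppfia3 at -0.44 and -0.48 at rest and after KCl, all called, and Rims1 was called at rest only, at 0.37 (edgeR FDR 0.0296).

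These were 7 members of 8 at rest, against 45.5% of all 12223 genes, and 6 after KCl, against 48.8%. Scaling by library totals alone lowered the median of all genes by 0.11 at rest and 0.10 after KCl and left Bsn at 1.10 and 1.03, while Rims1 at rest was then not called (0.26, edgeR FDR 0.133). Rims1 was not called at rest without the filter on low counts either (0.33, edgeR FDR 0.0663), nor was Erc2 with DESeq2 (-0.47, adjusted p = 0.0503). With the CDS length trend removed, 4 members at rest and 5 after KCl were called, all lower, against 32.9% and 35.1% of all genes, and Bsn stood at 0.13 and 0.01. Pclo turned to -0.17 at rest and to -0.38 after KCl, where it was called lower (edgeR FDR 0.00374), and Rims1 to -0.28 at rest and -0.75 after KCl, where it too was called. The direction of Pclo with knockdown therefore depended on whether the trend was removed, to which few genes of its length contribute. In the 3′ part of the Bsn CDS the log2 ratio of pulldown to input was 2.90 ± 0.056 at rest and 2.76 ± 0.016 after KCl (SD, n = 2), against 1.22 ± 0.066 with DHPG (SD, n = 3), and in the 5′ part it was -1.04, -1.60 and -1.57. In the middle part, which holds 6642 of the 11829 nt, it was 1.26 ± 0.0847 and 1.19 ± 0.0865 with knockdown (SD, n = 2) and 0.69 ± 0.110 with DHPG (SD, n = 3). Resting TurboID-PSD95 neurons without knockdown had -0.18 ± 0.171 in the middle and 0.56 ± 0.191 in the 3′ part (SD, n = 3). With knockdown Bsn was thus above its input in the middle and 3′ parts of its CDS and below it in the 5′ part. With 2 libraries per group, leaving out a library lost the calls of Rims1 at rest in 3 of 4 cases (log2 0.28 to 0.45), of Erc2 at rest in 3 (-0.48 to -0.54) and of Ppfia3 in 2 of 4 at rest (-0.33 and -0.35) and 2 of 4 after KCl (-0.36 and -0.43). The group then had 1 library, which the fit takes to vary like the other groups. Rims2, called neither at rest nor after KCl, had pair ratios of -0.28 and 0.98 (log2) after KCl, so its direction differed between the 2 pairs. Neuronal markers summed to 4963 to 5105 CPM in resting knockdown inputs and 4849.8 to 4860.1 CPM in pulldowns, and to 2720.5 to 2750.5 and 2985 to 3066 CPM after KCl, while oligodendrocyte lineage markers summed to 117 to 127 and 55.9 to 87.1 CPM at rest and 122 to 139.6 and 37.1 to 53.5 CPM after KCl. Their part in the result was not tested.

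KCl lowered the same 3 genes in knockdown neurons. In inputs Bsn went from 244 and 265 CPM to 169.6 and 187 CPM, Pclo from 384 and 394 to 209 and 225 CPM, and Rims1 from 137 and 121 to 73.1 and 64.5 CPM. No resting value of these genes overlapped a depolarized one, and the log2 fold changes were -0.50, -0.83 and -0.88 (edgeR FDR 0.000767, 2.68e-07 and 6.81e-05). Unc13a was also lower, at -0.38 (edgeR FDR 0.00912), a call lost without depolarized input 1 or resting input 2 (log2 -0.31 and -0.33) and with the CDS length trend removed (-0.28, edgeR FDR 0.0644). In pulldowns the values were -0.58 for Bsn, -0.995 for Pclo and -1.29 for Rims1 (edgeR FDR 0.000101 or lower). The 4 members called in inputs stand against 19.3% of all genes and the 3 in pulldowns against 22.2%. These 8 libraries are separate from those of the KCl experiment. In the knockdown inputs neuronal markers summed to 4963 to 5105 CPM at rest and 2720.5 to 2750.5 CPM after KCl, and astrocyte markers to 489 to 504 and 652 to 670.5 CPM. In the knockdown pulldowns neuronal markers summed to 4849.8 to 4860.1 CPM at rest and 2985 to 3066 CPM after KCl, and astrocyte markers to 417 to 523 and 579 to 793 CPM, and the part of these differences in the result was not tested.

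Against the inputs of the KCl experiment, the knockdown inputs were lower in the same 3 members. At rest Bsn had 244 and 265 CPM against 455, 539 and 593 CPM (log2 -1.04, SE 0.200, edgeR FDR 0.00376), and after KCl 169.6 and 187 CPM against 382, 376 and 336 CPM (log2 -1.003, SE 0.202, edgeR FDR 0.00465). Pclo and Rims1 stood at -1.13 and -1.01 at rest and at -1.28 and -0.94 after KCl (edgeR FDR 0.0257 or lower), and none of these groups overlapped. Unc13a had 0.19 and -0.11 (edgeR FDR 0.655 and 0.785). The 3 members called stand against 3.89% of all 13180 genes at rest and 5.29% after KCl. Without replicate 1 or 2 no member was called in either (Bsn -0.92 to -1.08, Pclo -1.13 to -1.42), and without replicate 3 Rims1 was not. Neuronal markers summed to 4963 to 5105 CPM in resting knockdown inputs and 3003 to 3574 CPM in the resting inputs they were compared with, astrocyte markers to 489 to 504 and 287 to 726 CPM. Oligodendrocyte lineage markers summed to 117 to 127 CPM in the former and 159.9 to 413 CPM in the latter. In depolarized inputs neuronal markers summed to 2720.5 to 2750.5 CPM with knockdown and 2200.0 to 2759 CPM without, and astrocyte markers to 652 to 670.5 and 289 to 432 CPM. Oligodendrocyte lineage markers summed there to 122 to 139.6 and 112 to 152 CPM. The part of these markers in the result was not tested. Knockdown and experiment cannot be told apart in this comparison.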

How the data were processed

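The deposited files are counts of footprint 5′ ends per CDS, 5′ UTR and 3′ UTR segment. The authors trimmed and demultiplexed the reads, cut off the molecular identifiers and aligned to mm10 with Rsubread, and per the file headers plastid counted reads of 25 to 100 nt over known gene segments with no offset to the ribosomal site. Footprints are therefore placed a little toward the 5′ end of where the ribosome decoded, and reads over bases shared by several transcripts count for each of them. The alignment names carry marks for the removal of rRNA and of duplicated reads, whose definition is not given in the sources used here.

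Segments were summed per transcript, and each gene was read from its transcript with the greatest length of CDS and UTRs together. Of 67238 coding transcripts 66750 matched GENCODE M21 identifiers, which gave the gene symbols. Groups came from the sample labels, in which the description of the DHPG inputs and knockdown libraries names the cytosol and the virus field TurboID-PSD95, and the latter was used. Differences between replicates exceeded sampling noise in all groups (chi-square per gene 1.47 or higher).

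The gene tests ran in edgeR 4.0.16 under R 4.3.3 (filterByExpr, TMM, robust quasi-likelihood F test, Benjamini-Hochberg FDR below 0.05 over all genes tested) in fits of 24 libraries (KCl), 6 (DHPG), 12 (DHPG and resting), 8 (knockdown) and 20 (knockdown and no knockdown). Fold changes use the TMM scale, and CPM and pair ratios only the CDS totals. The tests were also run on simulated data with known changes. There the gene tests recovered only part of the changes, and in some comparisons the share of false calls lay above the FDR threshold. The footprint centre and the share in the 5′ UTR were compared with two-sided exact permutation tests, adjusted over all genes with at least 3 CDS segments or a 5′ UTR and enough counts (a mean count of 100 or more). That adjustment was chosen after seeing the data, in place of one over the members' tests.

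Whether numbers pair libraries was checked by the correlation of their deviations from group means. It was 0.357 to 0.708 between pulldown and input in the KCl experiment, -0.208 to 0.0623 with DHPG and 0.0139 to 0.0149 with knockdown. Resting and depolarized libraries of one number were per the methods handled at the same time. Between them the correlation was -0.189 to 0.426 in the KCl experiment, so the main tests did not take these as pairs. The sign-flip tests of KCl against rest and the replicate block did. The pairing of input and pulldown comes from the methods, in which both are portions of the same fraction. That equal numbers mark these pairs was assumed, and the correlations with DHPG and knockdown did not show it.

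The members and lists were chosen with earlier results of these data known. Named genes were the 8 members, up to 2 called genes per direction with the smallest p of 29 other active zone genes, Dlg4 and Eif4g2 as checks and the 5 other genes most like the members in profile. Alternatives were RLE scaling, library totals, no filter, the likelihood ratio test of edgeR, DESeq2 1.42.0, the transcript with the highest count, removal of the CDS length trend, the replicate block, leaving out the first CDS segment for the footprint centre and leaving out replicates. Leaving out the depolarized TurboID-PSD95 pulldown 2 alone was added after seeing the data.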

Additional observations from a re-analysis of the deposited data

Results flagged for a closer look

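Of 76 groups of 6 libraries tested for a single value far from the others, 8 held one, where a rate of 1 in 20 would give 3.8. That rate assumes independent groups of like libraries. Here groups share libraries and pool resting with depolarized libraries or both ligases, so 3.8 is only a rough guide. The footprint centre of Ppfia3 was 33.4% in the depolarized TurboID-PSD95 pulldown 2, below the next pulldown at 48.4%. That of Unc13a was 23.9% in the depolarized Pan-TurboID input 3, next to 32.5%. For the share of footprints in the 5′ UTR, the same pulldown 2 was highest for Bsn (5.57%) and Unc13a (12.8%), and the depolarized TurboID-PSD95 input 1 was highest for Bsn (6.96%). The depolarized Pan-TurboID input 1, which also had the highest Pclo level of the depolarized inputs, was lowest for Pclo (4.73%). Rims2, with few 5′ UTR counts, was highest at 6.50% in the depolarized Pan-TurboID pulldown 3 and at 6.36% in the resting Pan-TurboID pulldown 2.

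In 6 of 56 comparisons of conditions, every pair of one condition lay on one side of its input and every pair of the other on the opposite side. Over all 13003 genes tested in the KCl experiment 3.15% of such comparisons did so, from 0.861% for resting TurboID-PSD95 against resting Pan-TurboID to 6.8% for resting neurons against resting knockdown neurons. These differences were not tested. For Bsn the log2 pulldown over input ratio was -0.20 ± 0.0933 in resting TurboID-PSD95 neurons (SD, n = 3), 0.64 below that with DHPG and 1.30 below that of resting knockdown neurons. For Pclo it was -0.13 ± 0.0840, lower by 0.48 than with DHPG, by 1.01 than in resting knockdown neurons and by 0.44 than in resting Pan-TurboID neurons. For Rims1 it was -0.29 ± 0.160, lower by 0.54 than in resting knockdown neurons. The conditions set against each other here come from separate experiments, except the Pan-TurboID one.

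Footprints in the 3′ UTR, which no comparison above uses, exceeded the 3 counts that a count of 0 allows in all 8 members. Over the 38 libraries there were 742 counts for Bsn, 838 for Unc13a, 407 for Erc1, 343 for Erc2, 246 for Rims1, 148 for Ppfia3, 96 for Pclo and 10 for Rims2. Per base this was 0.187% of the CDS density for Pclo and 3.75% for Rims2, the lowest and highest of the members.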

How the results depend on the processing

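Of 1786 member values under an alternative, 1563 kept their call and direction, 106 lost and 43 gained a call, 68 uncalled values changed sign and 6 called values reversed. All 6 reversals came with the CDS length trend removed: Bsn at -0.51 and Pclo at -0.68 in DHPG pulldowns over inputs, Pclo at -0.17, Rims1 at -0.28 and Unc13a at -0.01 (-0.00857) in resting knockdown neurons and Pclo at -0.38 in depolarized ones.

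In resting TurboID-PSD95 pulldowns over inputs, 1 member was called with the transcript of highest count, 5 with the CDS length trend removed and 4 with the replicate block, while library totals alone and DESeq2 gave 3 each. These settings called 25.1%, 14.1%, 41.9%, 24.7% and 35.0% of all genes. In depolarized ones the trend left 2 (5.35% of all genes) and the block 4 (34.6%). With Pan-TurboID the trend left 0 at rest (2.95%) and 0 after KCl (2.55%), the block gave 3 (32.9%) and 3 (31.9%), and DESeq2 gave 2 after KCl (22.5%). Among TurboID-PSD95 pulldowns, KCl against rest, 0 members were called without the filter on low counts (4.18% of all genes) and 0 with the trend removed (5.21%). In resting knockdown pulldowns over inputs the trend left 4 (32.9%). In the DHPG and knockdown pulldowns over inputs the block changed no member's call, and with the number as a block for KCl against rest 3 members were called in inputs, 1 in the pulldowns of each ligase and 4 in knockdown inputs, as without it, against 19.5%, 9.74% and 7.54%, and 19.2% of all genes. In knockdown pulldowns Erc2, not called otherwise, was called lower with the block (-0.53, edgeR FDR 0.0447), without the filter on low counts (-0.53, edgeR FDR 0.035), with the likelihood ratio test (-0.52, edgeR FDR 0.0336) and without depolarized pulldown 2 (-0.91, edgeR FDR 0.00267). For the footprint centre, depolarized against resting inputs, pairing by the replicate block left 0 and adjustment over the members' tests gave 4, and for the 5′ UTR share in inputs that adjustment gave 5.

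Leaving out replicates in turn gave 0 to 1 called members in resting and 0 to 5 in depolarized TurboID-PSD95 pulldowns over inputs, and 0 to 1 and 0 to 2 with Pan-TurboID, where 0% to 22.3%, 0.0227% to 30.8%, 0% to 9.43% and 0% to 4.56% of all genes were called. For KCl against rest it gave 1 to 3 in inputs, 0 to 1 in TurboID-PSD95 and 0 to 2 in Pan-TurboID pulldowns, against 3.9% to 16.2%, 0.697% to 11.2% and 0.561% to 5.5% of all genes. For DHPG against resting inputs it gave 2 to 5, for resting knockdown pulldowns over inputs 4 to 6 and for knockdown against no knockdown 0 to 2 at rest and 0 to 2 after KCl, against 19.6% to 23.1%, 31.4% to 38.3%, 0.0151% to 1.28% and 0.0678% to 5.04% of all genes. For the footprint centre it gave 0 in each of the 3 comparisons, where 4 against 4 libraries allow no exact p below 0.0286. By its construction, removal of the trend takes out differences shared by genes of like length. The cause of the other changes was not tested, also where libraries were left out.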

Other observations

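Over the 14 group means of level, on the log2(CPM + 1) scale, the genes outside the list whose profile was most like the mean profile of the 8 members were Nacad (r = 0.943), Ankrd34a (0.941), R3hdm2 (0.938), Satb1 (0.926) and Cntfr (0.926), among 7815 genes. Of the members, Rims1 followed that mean most closely (0.956) and Unc13a did not (-0.0169). Bsn and Pclo correlated at 0.898 and Erc1 and Ppfia3 at 0.911, whereas Unc13a and Erc1 had -0.676. These values are descriptions, since the groups share experiments and depth and the mean contains the members.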
